A study of Homo sapiens with 6 samples.

Results

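Cluster 2 was 1 of 5 transcriptional groups into which the authors' cell table sorts PC9 cells, and its members were taken as the cells with cluster number 2 at a clustering resolution of 0.2. It held 1198 of the 4208 PC9 cells listed in that table (28.5%), of 11258 PC9 cells and 19763 cells of both lines in the count tables. PC9 is an established lung adenocarcinoma line whose EGFR carries an activating deletion, and osimertinib inhibits that mutant kinase. The 10 PC9 populations were an untreated control (C), cells escalated stepwise and resistant to 8, 16, 32, 75, 150, 300 and 600 nM and 1.2 µM (T0008 to T1.2), and persister cells (P1.2) that had 9 days of acute exposure to 1.2 µM. No further genetic change is given for any group. Each population was 1 culture of the same line, marked with a CellPlex tag and sequenced in 1 pool, so the study holds no replicate of any population. All results are therefore descriptions without a test, and the intervals (95%, exact binomial) cover counting error only, not the spread between cells or cultures.

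EGFR signals through the RAS-MAPK and PI3K pathways, and EGFR-mutant lung cancer cells depend on it for growth and survival. Under an EGFR inhibitor most such cells die, a few enter a slow-cycling drug-tolerant persister state, and cells exposed to slowly rising doses can settle into resistant states that keep dividing. Interferon-stimulated genes, which take part in the results below, are switched on when STAT and IRF factors bind interferon response elements in their promoters, and their products restrict viruses, attract immune cells and modify proteins with ISG15.

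The epithelial identity of the line was visible in cluster 2: KRT18 was at 3787 counts per 1000000 unique molecular identifiers (CPM), KRT7 at 3554, KRT8 at 2081 and EPCAM at 306. EGFR, the drug target, was at 698 CPM inside and 686 CPM in the other listed cells. The latter pooled unlike clusters, with 1136 CPM in cluster 0, 734 in cluster 1, 759.7 in cluster 3 and 494 in cluster 4. The count table holds 5 of 12 immune, 7 of 8 endothelial, 3 of 10 fibroblast and 1 of 6 erythroid marker genes, and these summed to 19.6, 8.97, 10.2 and 0.304 CPM in cluster 2 and to 27.0, 9.07, 9.87 and 0.228 CPM in the other listed cells. The 4 of 8 melanocyte markers in the table summed to 56.4 CPM against 65.8 outside, of which MITF made up 49.7 and 59.4 CPM. Of the lung epithelial markers, NKX2-1, NAPSA and SFTPB were not analysed here. Cluster 2 summed 6580401 UMIs with a median of 5172 per cell, the lowest of the 5 clusters (the others lay between 5403 and 6672), and the median mitochondrial share was 8.54%. Only 12.9% (untreated) to 81.8% (persister) of a population's cells are in the authors' cell table. How they were chosen is not stated in the sources used here, although the table's name holds g1, which may mean the G1 phase. Genes of DNA replication and S phase summed to 896 CPM in listed and 3132 CPM in unlisted cells. Those of G2 and M phase summed to 1715 and 7899 CPM. Of the 1198 cell barcodes of cluster 2, 1 also occurred in the A375 table and no PC9 barcode occurred in more than 1 population.

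Cluster 2 was mainly a group of cells from the lowest doses. Of its 1198 cells, 749 (62.5%) came from the 8 and 16 nM populations and 1064 (88.8%) from 8 to 75 nM, while 712 of the 3010 other listed cells (23.7%) came from those 4 populations. The share of listed cells that fell into cluster 2 was 5.92% in untreated cells (10 of 169, interval 2.87 to 10.6%), 91.2% at 8 nM (300 of 329, 87.6 to 94.0%) and 85.0% at 16 nM (449 of 528, 81.7 to 88.0%). It was 50.5% at 32 nM (209 of 414, 45.6 to 55.4%), 21.0% at 75 nM (106 of 505, 17.5 to 24.8%) and 10.3% at 150 nM (34 of 329). At 300 nM, 600 nM and 1.2 µM it was 5.88%, 2.59% and 2.28% (26, 11 and 9 cells), and in persister cells 6.54% (44 of 673). The intervals at 16, 32, 75 and 150 nM did not overlap each other, whereas those at 8 and 16 nM did, as did those of untreated, 300 nM and persister cells. At higher doses most listed cells were in clusters 3 and 4: at 75 nM these held 205 and 162 cells, and at 1.2 µM 153 and 226. Untreated listed cells were mostly in cluster 0 (145 of 169) and persister cells in cluster 1 (599 of 673). Over all cells of each population, listed or not, cluster 2 made up 30.3% and 31.8% of the 8 and 16 nM populations, 19.1% and 8.03% of the 32 and 75 nM populations and 0.840% of the 1.2 µM population. The unlisted cells carry no cluster number, so these shares count only cells that were assigned to a cluster as members. The cells were grouped by their gene expression, so these shares follow from the same genes that are described next.

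**Figure D1:**
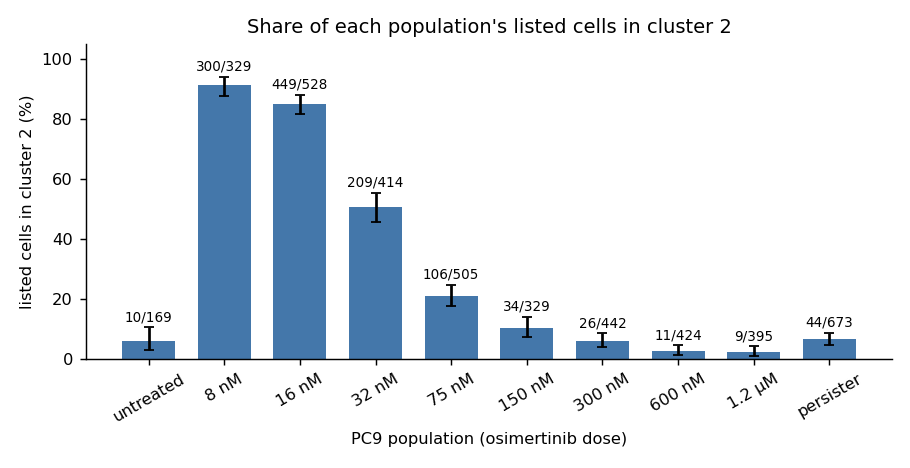
Percent of each PC9 population's listed cells that belong to cluster 2 (vertical axis) for the untreated, dose-escalated and persister populations (horizontal axis). Bars are the shares of 1 culture each, error bars are 95% exact binomial counting intervals, and the printed fractions are cells in cluster 2 over cells listed: the share is 91.2% at 8 nM, 50.5% at 32 nM and 2.28% at 1.2 µM.

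Cluster 2 was first set against all other listed cells. UMIs were summed per class, and a gene was measured where the higher class had at least 10 CPM and 20 UMIs. Of 9265 measured genes, 42 (0.453%) were at least 2-fold higher in cluster 2 and 70 (0.756%) at least 2-fold lower, with differences taken as log2(CPM + 1). With the 8, 16, 32 and 75 nM populations weighted equally, 121 were higher and 175 lower. Among the higher genes of at least 50 CPM, the largest difference was that of KCNQ5, a voltage-gated potassium channel subunit (chromosome 6, 72621792 to 73198851, GRCh38). It was at 174 CPM in cluster 2 and 30.9 CPM in the other listed cells, 5.64-fold higher (interval 5.09 to 6.26). The next were GNGT1, a G-protein gamma subunit of rod photoreceptors, at 65.0 against 17.9 CPM, and SPP1, the secreted glycoprotein osteopontin, at 362 against 133 CPM. ADIRF, a small protein named for adipogenesis, was at 243 against 94.7 CPM, and TMC1, a channel protein of sensory hair cells, at 54.9 against 23.3 CPM. KRT13, a keratin of stratified epithelia, was at 433 against 190 CPM, although cluster 0 had more of it (557 CPM) and its log2 difference was 0.86 with equal weights.

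Other genes among the highest had smaller differences. The membrane mucin MUC4 was at 124 against 57.9 CPM and the tetraspanin TSPAN1 at 114 against 54.1 CPM. GABBR2, a subunit of the GABA-B receptor, was at 66.6 against 30.3 CPM and the histamine receptor HRH1 at 55.3 against 27.0 CPM. The transcription factors SOX6 and ZNF704 were at 52.1 against 23.3 CPM and 159 against 70.9 CPM. ISG15, an interferon-induced protein modifier, was at 208 against 97.1 CPM. TMC5 (84.0 against 42.0 CPM) and ITGBL1 (233 against 122 CPM) completed the 15 highest and lay just under the 2-fold threshold, with log2 differences of 0.98 and 0.93. With the 4 populations weighted equally, 5 more fell below 2-fold: ZNF704 (0.97), SOX6 (0.85), ISG15 (0.89), MUC4 (0.85) and HRH1 (0.30). ISG15 was also below it with thinned cells (0.96) and without the 5 cells of highest ISG15 count (0.81), which held 18.5% of its UMIs. Leaving out 1 population did the same for TSPAN1 (0.93 without 8 nM, 0.84 without 16 nM), SOX6 (0.91 without 16 nM), HRH1 (0.88 without 16 nM) and GABBR2 (0.89 without 32 nM, 0.97 without 75 nM). MUC4 was higher in cluster 1 (138 CPM) than in cluster 2, and TSPAN1 was higher in cluster 0 (151 CPM). The other genes of this paragraph were highest in cluster 2. However, GABBR2 was at 58.5 CPM in cluster 1, and HRH1 and TMC5 at 49.9 and 75.8 CPM in cluster 0.

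The largest difference among the lower genes was that of TENM2, a teneurin adhesion protein (chromosome 5, 167284799 to 168264157, GRCh38). It was at 13.7 CPM in cluster 2 and 90.0 CPM in the other listed cells, 6.58-fold lower (interval 5.32 to 8.23). DIO2, the deiodinase that activates thyroid hormone, was at 67.5 against 248 CPM, and KISS1, the precursor of kisspeptins, at 46.2 against 161 CPM. These 3 genes were low relative to clusters 3 and 4, which supplied most of the other listed cells, but in cluster 0 all 3 were lower still (2.88, 33.6 and 27.8 CPM). The glycoprotein GPNMB was at 18.2 against 61.5 CPM, the FERM-domain proteins FRMD4A and FRMD6 at 57.4 against 188 and 69.6 against 164 CPM, and the ephrin receptor EPHB2 at 36.3 against 86.9 CPM. SLC35F3, a solute carrier, was at 241 against 606 CPM. Enzymes in this group were PLOD2, a collagen lysyl hydroxylase (93.2 against 235 CPM), ODC1, the first enzyme of polyamine synthesis (66.3 against 137 CPM), and FUT8, which adds core fucose to glycoproteins (163 against 333 CPM). The stress-response regulator NUPR1 was at 47.6 against 113 CPM, the small membrane protein PDZK1IP1 at 56.5 against 147 CPM and the adhesion protein AMIGO2 at 39.7 against 82.1 CPM. PDZK1IP1 was at 579 CPM in cluster 1 and between 14.5 and 25.3 CPM in clusters 0, 3 and 4. NUPR1 was at 1.92 CPM in cluster 0, far below its level in cluster 2. GPNMB, FRMD4A and PLOD2 were also lower in cluster 0 than in cluster 2. FRMD6, EPHB2, SLC35F3, ODC1, FUT8 and AMIGO2 were higher in cluster 0 than in cluster 2. With the 8, 16, 32 and 75 nM populations weighted equally, the log2 differences of PDZK1IP1 and NUPR1 were each -0.20, that of FRMD4A was -0.94 and that of AMIGO2 -0.79, all short of 2-fold. Without the 16 nM population those of NUPR1 (-0.84), ODC1 (-0.94), FUT8 (-0.95) and AMIGO2 (-0.92) fell short too, as did NUPR1 (-0.97) and AMIGO2 (-0.99) without 8 nM.

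**Figure D2:**
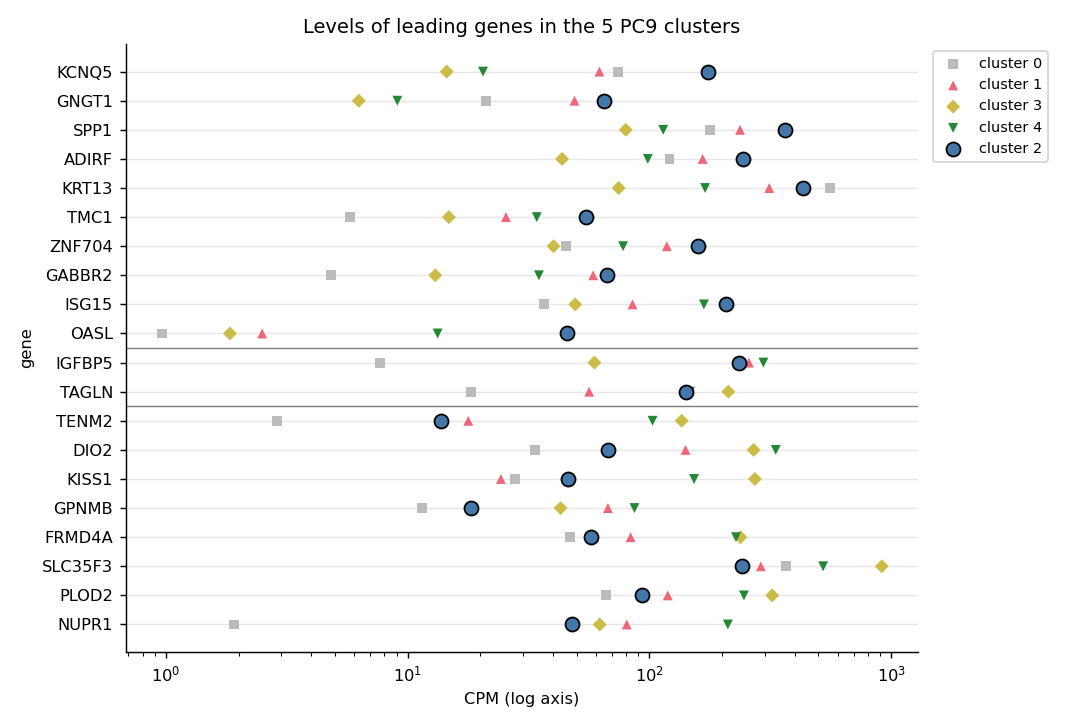
CPM on a log axis (horizontal) of 20 genes (vertical) in the 5 PC9 clusters, 1 symbol per cluster with cluster 2 as large outlined circles. The upper 10 genes were high in cluster 2, the middle pair are its given markers IGFBP5 and TAGLN, and the lower 8 were lower in it than in the other listed cells together: KCNQ5 is at 174 CPM in cluster 2 and between 14.5 and 73.9 CPM in the others.

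The markers given for cluster 2, IGFBP5 and TAGLN, did not set it apart from the other listed cells as a whole. IGFBP5, a secreted binding protein of insulin-like growth factors (chromosome 2, 216672105 to 216695525), was at 234 CPM in cluster 2, 258 in cluster 1, 296 in cluster 4, 59.2 in cluster 3 and 7.68 in cluster 0. TAGLN, the actin-binding protein transgelin (chromosome 11, 117199321 to 117204782), was at 141 CPM in cluster 2, 212 in cluster 3, 147 in cluster 4, 56.3 in cluster 1 and 18.2 in cluster 0. Both were thus high in cluster 2 relative to the mainly untreated cluster 0, 30.4-fold for IGFBP5 (interval 15.4 to 70.7) and 7.74-fold for TAGLN (4.93 to 12.9). Against all other listed cells their log2 differences were 0.36 and -0.02, and clusters 3 or 4 had more of each. The group is therefore called by its number here, and its leading gene was KCNQ5. Over the 19 combinations of cluster and population with at least 50 cells, the genes whose log2(CPM + 1) was most like that of IGFBP5 were GOLGB1, KLHL24, PDLIM1, SUGCT and PTGIS, with Pearson correlations between 0.940 and 0.958. These 19 classes share 1 library and were formed from the same genes, so the values are descriptions.

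With each cell thinned to 2500 UMIs, which left out 23 of 1198 cells of cluster 2 and 173 of the 3010 others, KCNQ5 was detected in 26.8% of cluster 2 cells (interval 24.3 to 29.4%; 38.3% before thinning). The shares in clusters 0, 1, 3 and 4 were 15.3%, 12.2%, 2.45% and 3.49%. Median depths in clusters 3 and 4 were 5906 and 5517 UMIs per cell before thinning. The part of RNA free in the droplets in these shares was not tested. SPP1 was detected in 48.6% of thinned cluster 2 cells and in 15.9 to 35.2% of the cells of the other clusters. TENM2 was detected in 3.15%, against 24.0% in cluster 3 and 18.9% in cluster 4, and KISS1 in 8.00%, against 44.4% and 27.2%. IGFBP5 was detected in 32.3% of thinned cells, below the 42.1% of cluster 4. KCNQ5 was broadly carried: its UMIs lay in 459 cells, and the 5 cells with the most held 7.06% of them.

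Each of the other clusters was also set against cluster 2 on its own. Against cluster 0, of 8637 genes 715 (8.28%) were at least 2-fold higher in cluster 2 and 369 (4.27%) lower. Among the low ones were HMGA2, a chromatin protein of fetal tissues and many tumours, at 9.12 against 288 CPM, and the calcium-binding protein S100A2 at 67.8 against 589 CPM. Against cluster 1, the cluster of the persister cells, 118 of 9361 genes passed 2-fold upwards (1.26%) and 170 downwards (1.82%). The iron-scavenging defence protein LCN2 was at 1074 against 5284 CPM. CCNB1, a mitotic cyclin, was at 51.5 against 23.5 CPM. Against cluster 3, 276 of 9377 genes were higher (2.94%) and 188 lower (2.00%). There LCN2 went the other way, with 1074 against 205 CPM, and KISS1 was 5.90-fold lower in cluster 2 (interval 5.22 to 6.69). Against cluster 4, 140 of 9276 genes were higher (1.51%) and 98 lower (1.06%), among the lower ones NUPR1 at 47.6 against 211 CPM.

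Genes that were past 2-fold against each of the 4 other clusters were few: 7 higher and 1 lower. The high ones were KCNQ5, the phospholipid acyltransferase MBOAT1 (36.3 CPM), the interferon-stimulated genes OASL (45.7 CPM) and HERC5 (27.8 CPM), the chemokine CCL5 (22.9 CPM), the keratin KRT4 (12.0 CPM) and the retinoic acid hydroxylase CYP26A1 (12.2 CPM). The low one was HBEGF, a ligand of EGFR, at 6.38 CPM in cluster 2 and between 16.1 and 39.3 CPM in the other clusters. Their levels in the other listed cells as a whole were 30.9 CPM for KCNQ5, 11.3 for MBOAT1, 5.82 for OASL, 9.01 for HERC5, 2.57 for CCL5, 2.51 for KRT4 and 2.91 for CYP26A1. For CCL5 and OASL the level rested on few cells: 5 cells held 80.8% of the CCL5 UMIs of cluster 2 and 38.2% of its OASL UMIs, and without those 5 cells the CCL5 log2 difference was 0.60 instead of 2.75. For HERC5, 5 cells held 24.0% of the UMIs. Without them HERC5 was at 21.3 CPM in cluster 2, less than 2-fold above the 12.7 CPM of cluster 4. OASL was detected in 3.49% of thinned cluster 2 cells (interval 2.52 to 4.70%) and 2.69% of thinned cluster 4 cells (1.78 to 3.89%), and before thinning in 4.92% and 5.43%.

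Cells of the same population inside and outside cluster 2 could be compared at 16, 32 and 75 nM, where both classes held at least 50 cells. At 16 nM, 478 of 6642 genes (7.20%) were at least 2-fold higher inside and 94 (1.42%) lower. At 32 nM it was 172 (2.17%) and 163 (2.05%) of 7941 genes, and at 75 nM 107 (1.42%) and 484 (6.40%) of 7561 genes. The unequal counts at 16 and 75 nM go with unequal depth, since 20 UMIs are reached at a lower CPM in the larger class: the other listed cells summed 388833 UMIs at 16 nM and cluster 2 summed 565418 at 75 nM. With a minimum of 50 CPM the counts were 53 higher and 94 lower at 16 nM, 46 and 48 at 32 nM, and 71 and 95 at 75 nM. The median log2 difference of all measured genes was 0.13, -0.03 and -0.14 in the 3 populations, and trimmed mean (TMM) scaling moved all differences at 16 nM by 0.11.

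At this 50 CPM minimum 8 genes were past 2-fold higher inside cluster 2 in each of the 3 populations, and 15 were lower. The 8 high ones were KCNQ5, SPP1, TMC1, GABBR2, the collagen COL12A1, the protease inhibitor TFPI2, the ubiquitin ligase adaptor KLHL24 and RGL1, an exchange factor for Ral GTPases. KCNQ5 was at 191 against 69.4 CPM at 16 nM, 247 against 77.0 CPM at 32 nM and 320.1 against 20.8 CPM at 75 nM. SPP1 was at 422 against 141, 341 against 98.7 and 297 against 72.3 CPM. TFPI2 was at 370.2 against 167, 398 against 157 and 359 against 112 CPM. At 16 nM the other listed cells held only 2 UMIs of TMC1 and 3 of RGL1, so the size of these 2 differences is poorly known there.

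The 15 low genes held TENM2, PLOD2, FRMD6, KISS1, DIO2, SLC35F3, ODC1 and FUT8. With them went DKK1, a secreted inhibitor of Wnt signalling, the receptor ROR1, S100A2, DNAJC6, MARCH4 and the mitotic genes CCNB1 and TPX2. TENM2 was at 11.1 against 59.2 CPM at 16 nM, 9.87 against 84.5 CPM at 32 nM and 23.0 against 129.7 CPM at 75 nM. SLC35F3 was at 254 against 607, 250.4 against 730.2 and 184 against 734 CPM. DKK1 was at 73.5 against 198, 47.6 against 138 and 31.8 against 127 CPM. CCNB1 was at 50.5 against 103, 36.8 against 84.5 and 28.3 against 76.5 CPM, lower inside cluster 2 in each of these populations. GNGT1 differed by population: it was at 63.6 against 48.9 CPM at 16 nM, 83.5 against 3.35 CPM at 32 nM and 88.4 against 6.80 CPM at 75 nM.

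**Figure D3:**
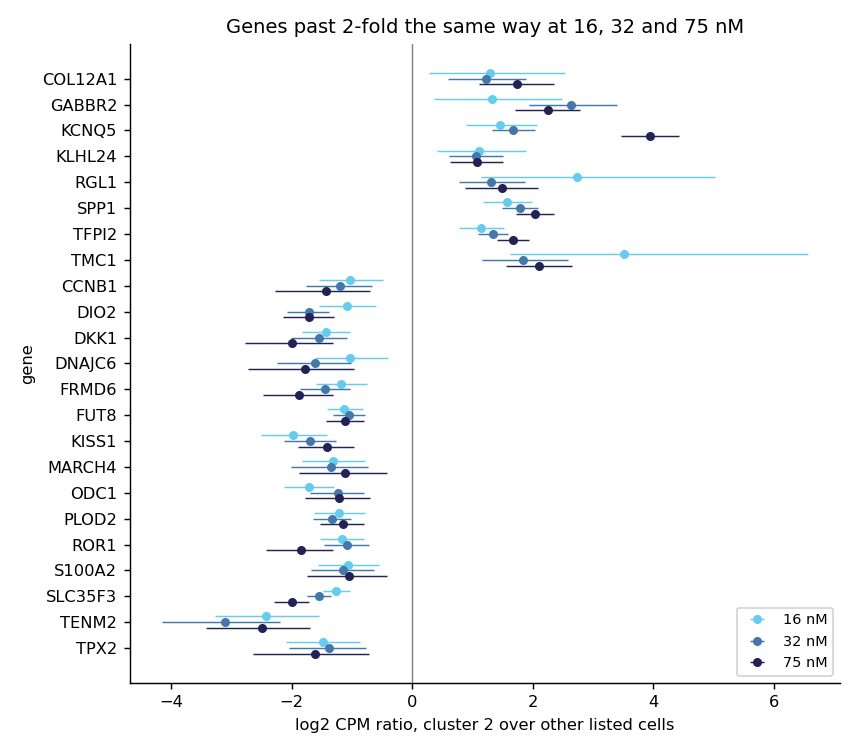
Log2 ratio of CPM, cluster 2 over other listed cells of the same population (horizontal), for the 23 genes past 2-fold in the same direction at 16, 32 and 75 nM (vertical). Points are ratios without pseudocount and bars are 95% counting intervals: the 8 upper genes lie right of 0 and the 15 lower ones left of 0, and KCNQ5 lies at 15.4-fold at 75 nM.

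Followed over the populations, the leading genes of cluster 2 moved with dose in different ways. KCNQ5 inside cluster 2 was at 73.7, 191, 247 and 320.1 CPM at 8, 16, 32 and 75 nM, and at 209 and 203 CPM at 150 and 300 nM (34 and 26 cells). In the other listed cells it was at 22.8, 69.4, 77.0 and 20.8 CPM at 8 to 75 nM and between 6.59 and 14.5 CPM at 150 nM to 1.2 µM. In the cells absent from the authors' cell table, which did not enter the cluster rule, KCNQ5 was at 112 CPM untreated, at 118, 159, 72.3 and 32.7 CPM from 8 to 75 nM and between 8.51 and 19.6 CPM from 150 nM to 1.2 µM. KCNQ5 in these unlisted cells was therefore present before treatment and lower from 32 nM on, while inside cluster 2 it was higher at each dose step from 8 to 75 nM. Since KCNQ5 is among the genes that set membership, its course inside the cluster is conditional on being a member.

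SPP1 in cluster 2 was at 365, 422, 341 and 297 CPM at 8, 16, 32 and 75 nM, and in unlisted cells it was at 203 CPM untreated, 276, 243, 126 and 75.5 CPM at these doses. IGFBP5 in cluster 2 was at 141, 213, 308 and 444 CPM at 8 to 75 nM, above the other listed cells of each of these populations (60.7, 121, 135 and 174 CPM). In unlisted cells IGFBP5 was at 5.31 CPM untreated and between 53.4 and 116 CPM in all treated populations. TENM2 stayed between 7.79 and 23.0 CPM in cluster 2 from 8 to 75 nM. In unlisted cells TENM2 was at 6.05 CPM untreated, 17.0, 31.5, 125 and 183 CPM at 8 to 75 nM and between 162 and 201 CPM above. KISS1 in unlisted cells was at 22.3 CPM untreated, 46.4, 69.2, 203 and 295 CPM at 8 to 75 nM, and 36.0, 31.6, 53.8 and 76.0 CPM inside cluster 2. At 32 and 75 nM the TENM2 and KISS1 levels inside cluster 2 were nearer to those of untreated unlisted cells than the levels of unlisted cells were. Both genes were named as low in cluster 2 from these same cells, so their low levels there are conditional on being a member. IGFBP5 inside cluster 2 went the other way, with 444 CPM at 75 nM against 5.31 CPM in untreated unlisted cells. The 44 persister cells in cluster 2 had 72.5 CPM of KCNQ5, 299 of SPP1 and 13.6 of TENM2, and the persister cells of the other clusters had 58.0, 253 and 10.4 CPM.

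**Figure D4:**
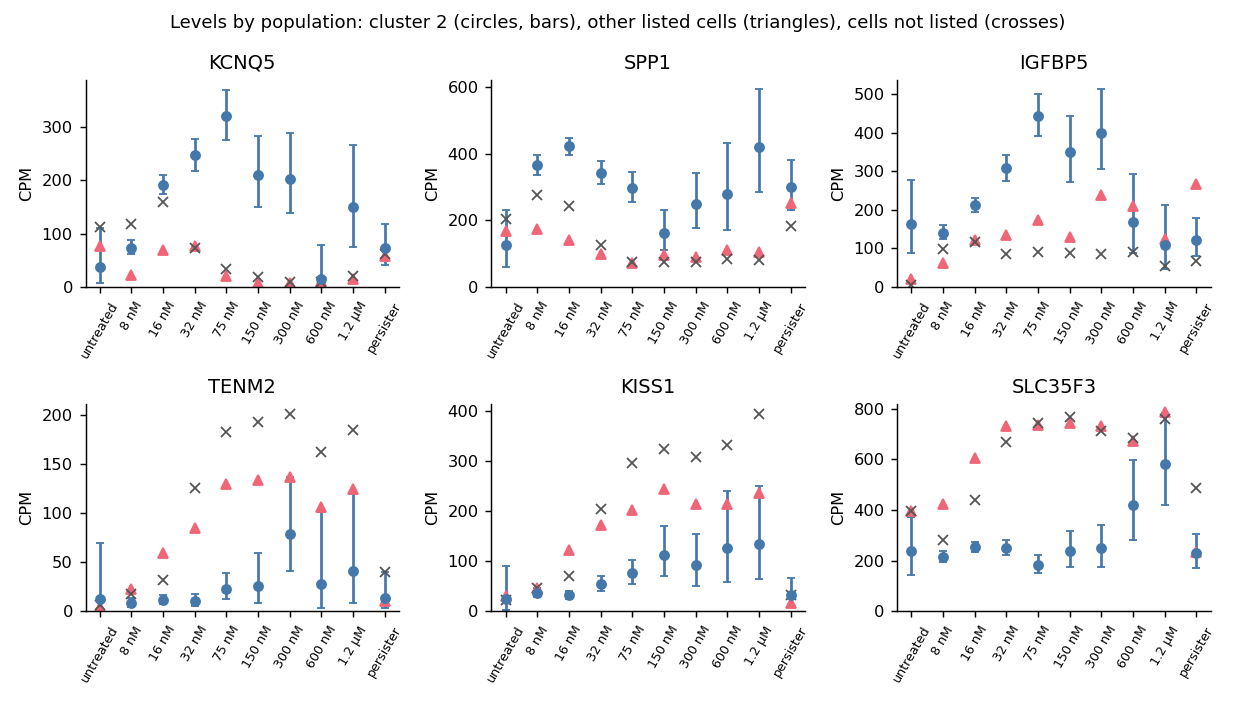
CPM (vertical) of 6 genes in the 10 PC9 populations (horizontal) in cluster 2 (circles with 95% counting intervals), other listed cells (triangles) and cells absent from the authors' cell table (crosses). From 8 to 75 nM, KCNQ5, SPP1 and IGFBP5 are higher inside cluster 2 than in the other listed cells, and TENM2, KISS1 and SLC35F3 are lower. Intervals are widest where cluster 2 held few cells, from 9 at 1.2 µM to 34 at 150 nM. At 8 nM the other listed cells numbered only 29.

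Inside cluster 2, the 75 nM cells (106) were compared with the 8 nM cells (300). Of 7208 genes, 96 (1.33%) were at least 2-fold higher at 75 nM and 351 (4.87%) lower, with a median log2 difference of -0.10 over all measured genes. With a minimum of 50 CPM, which the smaller class needs for an even count, these numbers were 62 and 52. MAPT, the microtubule protein tau, was at 63.7 CPM at 75 nM and 5.39 CPM at 8 nM, and TNNT2, cardiac troponin T, at 61.9 and 5.99 CPM. NUPR1 was at 133 and 18.0 CPM, so this gene of the stress response differed with dose inside the cluster although the cluster as a whole had less of it than cluster 4. Lower at 75 nM were TSPAN1 (40.7 against 143 CPM), KRT13 (214 against 569 CPM) and the neuropeptide NMB (122 against 366 CPM).

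HSP90AA1, which encodes an inducible HSP90 chaperone (chromosome 14, 102080738 to 102139699), was at 5220.0 CPM at 8 nM and 2052 CPM at 75 nM inside cluster 2. At 16 and 32 nM it was at 4798 and 3104 CPM. The other listed cells had 4081, 2032 and 1272 CPM at 16, 32 and 75 nM. The 23 other protein-coding genes of the stretch from PPP2R5C to ZFYVE21 (chromosome 14, 101761798 to 103733668), chosen after earlier values were seen, summed to 2609.7, 2562, 2159 and 1588 CPM at 8, 16, 32 and 75 nM inside cluster 2, and to 2785, 2250.3, 1539.8 and 1087 CPM in the other listed cells. The 17 measured of these 23 genes were all lower at 75 than at 8 nM inside cluster 2 (median log2 difference -0.74). Of all genes in that comparison 38.1% lay above 0. Against cluster 4 all 19 measured ones were higher in cluster 2, 14 of them past 2-fold (median 1.35), where 52.5% of all genes lay above 0 and 1.51% were past 2-fold. The 44 persister cells inside the cluster had 4657 CPM of HSP90AA1 and 2600.5 CPM of its neighbours. The persister cells of the other clusters had 4003 and 2667 CPM. Untreated listed cells outside cluster 2 had 7886 CPM of HSP90AA1 and 2881 CPM of its neighbours. Cluster 2 at 8 to 75 nM was thus below untreated cells in both, and above cluster 4.

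Of the 40 gene lists, the interferon-stimulated genes had the most members past 2-fold in cluster 2. Of 37 listed genes 31 were measured, 8 were at least 2-fold higher and 0 lower than in the other listed cells, and 29 lay above 0, with a median log2 difference of 0.70. The same median over all 9265 measured genes was -0.01, 47.4% of them lay above 0 and 0.453% were 2-fold higher. Within populations 8 of 25 measured members were past 2-fold higher at 16 nM (median 0.89), 6 of 26 at 32 nM (0.78) and 11 of 15 at 75 nM (1.32), and 0 were lower. Since a gene enters through its higher class, unequal depth shapes these counts. At 16 nM a member lower inside cluster 2 needed more CPM to be measured than a higher one. At 75 nM a member higher inside cluster 2 needed more CPM to be measured than a lower one. Of all genes in these comparisons 7.20%, 2.17% and 1.42% were past 2-fold higher, with medians of 0.13, -0.03 and -0.14. Against cluster 4 the list's median was 0.02 with 3 of 32 measured members past 2-fold higher, where 1.51% of all genes were. Against clusters 0, 1 and 3 the list's median was 2.38, 1.02 and 1.77. To show what these genes share, the 250 bases before the transcription start are given for 3 of them from RefSeq (GRCh38.p14): IFIT1 (chromosome 10, 89392373 to 89392622, plus strand), IFIT3 (chromosome 10, 89327747 to 89327996, plus strand) and ISG15 (chromosome 1, 1013247 to 1013496, plus strand). IFIT1 and IFIT3 encode proteins that bind foreign RNA. Capitals mark the letters searched for, the core of an interferon response element: GAAA, any 2 bases and GAAA again, or the same letters read from the other strand, where they appear as TTTC, 2 bases and TTTC.
IFIT1: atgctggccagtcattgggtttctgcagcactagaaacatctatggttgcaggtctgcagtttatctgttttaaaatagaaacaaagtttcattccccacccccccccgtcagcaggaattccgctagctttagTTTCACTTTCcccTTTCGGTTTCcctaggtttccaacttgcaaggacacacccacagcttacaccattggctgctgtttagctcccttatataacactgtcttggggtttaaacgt
IFIT3: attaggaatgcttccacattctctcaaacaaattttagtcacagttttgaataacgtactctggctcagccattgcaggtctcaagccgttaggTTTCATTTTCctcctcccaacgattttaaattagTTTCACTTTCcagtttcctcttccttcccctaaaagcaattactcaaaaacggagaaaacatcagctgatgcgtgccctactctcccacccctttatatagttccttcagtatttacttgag
ISG15: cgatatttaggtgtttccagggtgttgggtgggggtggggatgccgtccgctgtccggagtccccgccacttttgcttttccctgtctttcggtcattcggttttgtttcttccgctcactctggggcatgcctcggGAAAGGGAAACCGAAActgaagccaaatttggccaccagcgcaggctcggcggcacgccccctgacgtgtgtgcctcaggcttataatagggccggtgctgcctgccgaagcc
RefSeq windows were found for 28 of the 37 list members. The letters occurred in 17 of 25 matched promoters of measured list members (68.0%) and in 1061 of 35116 promoter windows in all (3.02%). Overlapping matches were counted. A match describes the sequence and is no measurement of binding.

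The interferon genes were carried by a small number of cells at high level in addition to lower levels in the rest. The summed list was at 1372 CPM in cluster 2 and 816 CPM in the other listed cells. IFIT1, IFIT2, IFIT3, OASL and CCL5, a group chosen after their values were seen, together had 5 or more UMIs in 35 of 1198 cells of cluster 2 (2.92%, interval 2.04 to 4.04%), 25 of 3010 other listed cells (0.831%, 0.538 to 1.22%) and 49 of 7050 unlisted cells (0.695%, 0.515 to 0.918%). The cut is a range on a continuous score: 21 cells of cluster 2 had 3 or 4 of these UMIs. The 35 cells held 73.7% of the UMIs of the 5 genes in cluster 2, up to 85 in 1 cell, at a median of 5700 total UMIs per cell. Of the 25 such cells in the other clusters, 23 were in cluster 4 and 2 in cluster 1.

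These interferon-high cells were not evenly spread over dose. Inside cluster 2 the 8 and 16 nM populations held 2 of 300 (0.667%) and 4 of 449 (0.891%), and the 32 and 75 nM populations 11 of 209 (5.26%, interval 2.66 to 9.22%) and 8 of 106 (7.55%, 3.31 to 14.3%). Of the other listed cells at 32 and 75 nM, 3 of 205 (1.46%) and 2 of 399 (0.501%) were interferon-high. Among the 80 cells of cluster 2 from 150 nM to 1.2 µM there were 9 (11.2%, interval 5.28 to 20.3%), against 18 of 1510 other listed cells (1.19%, 0.708 to 1.88%) and 33 of 2714 unlisted cells of these populations (1.22%, 0.838 to 1.70%). At 1.2 µM 4 of the 9 cells in cluster 2 were interferon-high. Of 1315 untreated cells, listed or not, 0 were, which for the 1146 unlisted ones allows a share of up to 0.262%. OASL, which encodes an antiviral relative of the oligoadenylate synthetases, was counted among the 5 genes. Inside cluster 2 it was at 8.99, 18.5, 51.2 and 74.3 CPM at 8, 16, 32 and 75 nM, whereas the other listed cells had 6.69 CPM at 32 nM and 5.10 CPM at 75 nM. The cells were grouped by their gene expression, so these shares and levels inside cluster 2 are conditional on being a member.

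Without the interferon-high cells in either class the summed list was at 1009 CPM in cluster 2 and 775 CPM in the other listed cells. Cluster 4 was above cluster 2, at 1181 CPM without these cells, and cluster 1 was at 891, cluster 3 at 414 and cluster 0 at 330.1 CPM. Of 24 members still measured 2 were past 2-fold higher, IFI27 (33.0 against 11.2 CPM) and IFI44 (12.7 against 4.55 CPM), and 19 lay above 0, with a median log2 difference of 0.38. The shares over all genes were not computed without these cells. With these cells included, 0.453% of all genes were past 2-fold higher and 47.4% lay above 0. ISG15 was then at 125 against 89.3 CPM and IFIT2 at 16.5 against 23.7 CPM. In these remaining cells the list was at 819, 1141, 999 and 908 CPM inside cluster 2 at 8, 16, 32 and 75 nM. The other listed cells of these populations were at 577, 741, 873 and 613 CPM. In untreated listed cells the list was at 588 CPM inside cluster 2 (10 cells) and at 337 CPM outside it. The list was at 302 CPM in untreated unlisted cells and between 458 and 750.2 CPM in the unlisted cells of the treated populations.

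**Figure D5:**
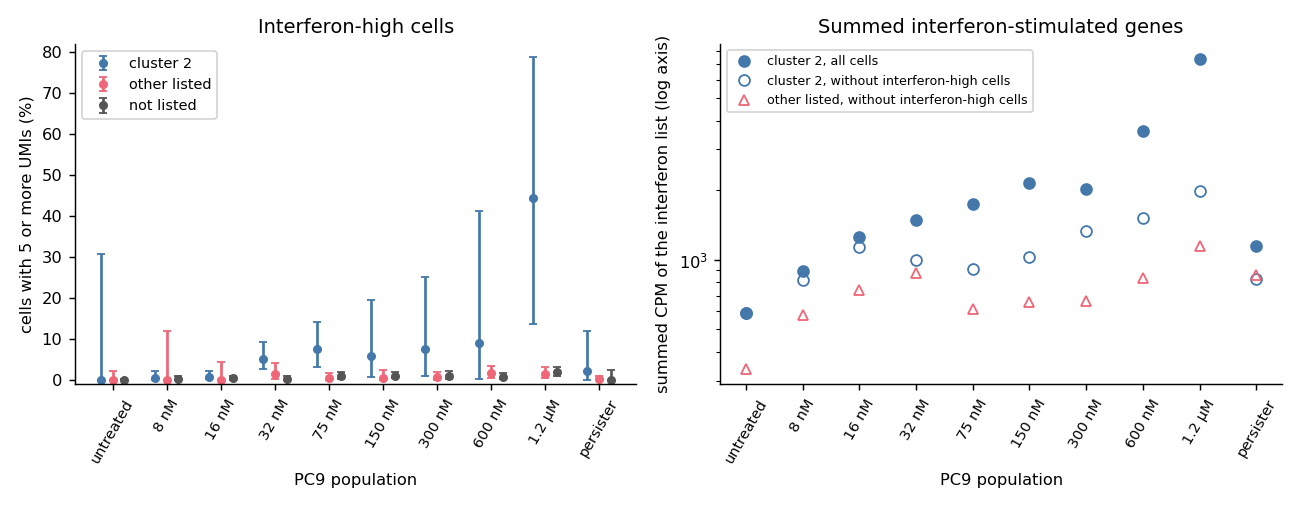
Left, percent of cells with 5 or more UMIs of IFIT1, IFIT2, IFIT3, OASL and CCL5 together (vertical) by population, with 95% counting intervals, in cluster 2, other listed and unlisted cells. Right, summed CPM of the interferon list on a log axis by population, with and without those cells: at 1.2 µM 4 of 9 cells of cluster 2 are interferon-high, and the summed list is at 7353 CPM with them and 1980.2 CPM without.

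Against all other listed cells the remaining lists showed small differences. Of all genes measured there, 47.4% lay above 0 and 0.756% were past 2-fold lower. MHC class I presentation genes had a median of 0.32 with 11 of 12 measured members above 0, but none past 2-fold. MAPK output genes, read-outs of the pathway below EGFR, had a median of -0.26 with 2 of 14 above 0, and extracellular matrix genes a median of -0.28 with 7 of 22 above 0 and 1 past 2-fold lower. FN1, fibronectin, was at 229 against 121 CPM, but at 329 CPM in cluster 1. The 14 heat shock chaperones had a median of 0.13, and HSP90AA1 had the largest difference of them (0.89). Against the mainly untreated cluster 0 the MAPK output list had a median of -0.99, with 8 of 16 measured members past 2-fold lower. The DNA replication list had a median of -0.94 there, with 12 of 28 past 2-fold lower. Of all genes against cluster 0, 4.27% were past 2-fold lower, with a median of 0.05. Cell-cycle transcripts depended on the comparison. The G2 and M list had a median of -0.11 against all other listed cells (37 measured), 0.61 against cluster 1 (35), 0.52 against cluster 4 (35), -0.66 against cluster 3 (42) and -0.66 against cluster 0 (34). Within populations they were lower inside cluster 2, with medians of -0.42, -0.62 and -0.80 at 16, 32 and 75 nM, where 5 of 21, 6 of 32 and 13 of 36 were past 2-fold. Of all genes 1.42%, 2.05% and 6.40% were past 2-fold lower there, with medians of 0.13, -0.03 and -0.14. Their summed level was 1620.4 CPM in cluster 2, between 1065 and 2732 CPM in the other clusters, and between 6318 and 8945 CPM in the unlisted cells of the 10 populations. The part of cycling cells in the other differences, above all those from unlisted cells, was not tested.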

How the data were processed

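The PC9 library, a 10x Genomics 3′ pool of 10 tagged populations, was analysed. The deposited counts are UMIs per gene and cell made by the authors. Cell Ranger 7.0.0 and GRCh38 are named in the submitters' processing notes. Per the file headers, the authors' cell table gives for each listed cell its summed count, detected genes, mitochondrial percent and cluster number. The first 3 matched the counts in all 4208 listed cells. Filters before deposition are not given in the sources used here. The members and gene lists were chosen with earlier results of these data known.

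UMIs were summed per class and divided by the class total (CPM). A gene was measured at 10 CPM and 20 UMIs in the higher class and called at 2-fold in log2(CPM + 1). Intervals are Clopper-Pearson, and the limit for a count of 0 is 3 counts. UMIs remove amplification copies, and intervals cover counting error only. Named genes were the 15 highest and 15 lowest at 50 CPM, up to 3 per list, 10 per direction of the comparisons within populations and by dose, genes past 2-fold against every other cluster, IGFBP5, TAGLN, EGFR, HSP90AA1 and the 5 most like IGFBP5. The genes past 2-fold within all 3 populations, IFI27, the interferon-high cells and the chromosome 14 stretch were chosen after their values were seen. A gene that the rule names is not reported here. No doublet caller was run, and an alternative omits cells above 2 times their population's median UMIs. Alternatives changed the pseudocount, minimum, scaling, depth, threshold, weighting and populations. The comparison was tested on simulated data. Gene positions are GENCODE's. Tools were Python 3.11.15, numpy 2.4.6, scipy 1.17.1, pandas 2.3.3, matplotlib 3.10.9, R 4.3.3 and edgeR 4.0.16 (TMM factors only).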

Additional observations from a re-analysis of the deposited data

How the results depend on the processing

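No paired analysis was possible because no population had a replicate culture, so a fit with the replicate number as a term has no samples to pair. Cells inside and outside cluster 2 were compared within the 16, 32 and 75 nM cultures instead, without a test. Of 885 values of 60 genes under the alternatives, 0 changed direction where called, 744 stayed inside the counting interval and 141 did not, and 17 of 38 genes past 2-fold were below it under at least 1 alternative. Counts of genes past 2-fold depended on the settings, in the order higher, lower. Against all other listed cells (42, 70) they were 27 and 34 with a pseudocount of 5 CPM, 13 and 17 at 50 CPM, 68 and 136 without a CPM minimum, 8 and 11 at 3-fold, and 121 and 175 with the 4 populations weighted equally. Leaving out the 8, 16, 32 or 75 nM population gave 36 to 53 higher and 56 to 75 lower. With a pseudocount of 5 CPM, cluster 1 gave 54 and 106, cluster 3 gave 183 and 115, and cluster 4 gave 92 higher. At 50 CPM, cluster 0 gave 220 and 188, cluster 1 gave 27 and 64, cluster 3 gave 96 and 69, and cluster 4 gave 42 and 37. Thinning gave 230 lower against cluster 0 and 204 higher against cluster 1. Within populations a pseudocount of 5 CPM gave 294 higher at 16 nM, 104 and 104 at 32 nM, 265 lower at 75 nM, and 191 lower for 75 against 8 nM. At 50 CPM these were 53 higher at 16 nM, 46 and 48 at 32 nM, 71 and 95 at 75 nM, and 62 and 52 by dose. At 16 nM, TMM scaling gave 629 higher and 53 lower, and thinning 784 and 48. Counting only genes whose interval leaves out 1, chosen after seeing the data, gave 194 higher at 16 nM, 284 lower at 75 nM and 205 lower by dose. Over all cells the share of cluster 2 was 0.760% untreated, 30.3, 31.8, 19.1, 8.03, 3.20, 2.35, 1.04 and 0.840% from 8 nM to 1.2 µM. The unlisted cells in these shares carry no cluster number. Depth limits the classes below 50 cells: a count of 0 allows 37.5 CPM in the 10 untreated cells of cluster 2 and 40.6 CPM in its 9 cells at 1.2 µM.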
